A study of Mus musculus with 8 samples.

Results

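Genes of the bone morphogenetic protein (BMP) and transforming growth factor beta (TGF-beta) pathway were followed in mouse ganglion spheres grown with or without retinoic acid (RA). The set held 44 genes chosen by symbol: ligands, their latent carriers and antagonists, receptors, Smad proteins and the Id genes. All 44 had a probe among the 20641 genes that could be named on the array, and 37 of them were bright enough to be tested among 13539 tested genes. The spheres came from superior mesenteric ganglia of 3-week-old mice of strain background 129+Ter/SvJcl, hemizygous for TH-MYCN, a transgene in which a tyrosine hydroxylase promoter drives human MYCN in sympathetic cells. Both arms carry the transgene, and no ganglion without it was analysed here. Per the series' description, dissociated cells of a ganglion were divided between RA (+) and RA (-) medium, and primary spheres were collected after 8 days. There were 4 ganglia, numbered 1 to 4, and so 4 arrays of each medium. A sphere is a mixed culture, so in every result below fewer cells of a type and less RNA per cell cannot be told apart.

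As background, BMP, TGF-beta and activin ligands are secreted dimers that bring together type I and type II receptor kinases. The type I receptor phosphorylates Smad1, Smad5 and Smad9 downstream of BMP, or Smad2 and Smad3 downstream of TGF-beta and activin, and these join Smad4 and enter the nucleus. Smad6, Smad7 and the Smurf ubiquitin ligases dampen the signal, noggin-like proteins trap BMP ligands outside the cell, and the Id genes are classic BMP targets whose products block basic helix-loop-helix factors. In the embryo, BMP from the dorsal aorta directs neural crest cells towards the sympathetic lineage.

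Levels below are log2 signals minus the 75th percentile of the same array, so they order arrays for 1 gene and do not rank genes. A change is RA-free minus RA-containing, and a gene was called changed at a Benjamini-Hochberg adjusted p under 0.05 over all tested genes in limma with the ganglion as a block. Between 52.7% and 55.3% of spots were well above background on the arrays with RA. Without RA the share was 55% on array 1 and 48.5% to 51.7% on arrays 2 to 4, below every RA-containing array. On the 4 RA-containing arrays the 75th percentile lay at 228 to 306 intensity units, and on the 4 RA-free arrays at 235 to 295. Of 6 tested RA-responsive genes, 5 were called lower without RA and 1, Crabp2, higher (0.22), with Rarb going from a mean level of 4.36 to 2.58, Dhrs3 from 5.19 to 0.19 and Cyp26b1 from 7.94 to −4.65, with 1 of 4 RA-free arrays well above background for the last. Of 20 sympathetic neuron and neuroblast markers, 19 were well above background on all 8 arrays. RA-free array 1 lay closer to the RA-containing arrays than the other RA-free arrays did on the first principal component, at 42.3 against 59.5 to 66.2.

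The pathway did not move as a block. Without RA, Bmp6 and Bmp7 transcripts rose, and Bmpr1b and Id2 rose 2.23-fold and 2.20-fold. The ligands Bmp2 and Tgfb2, the antagonist Grem1, Smad9 and Id4 fell. The calls of Bmp7 and Bmp2 were lost under 3 and 4 of 14 alternative ways of processing the data. Of the 37 tested members, 25 (67.6%) were called changed, against 64.3% of all genes tested. Called higher were 12 members (32.4%, against 36.1% of all genes) and called lower 13 (35.1%, against 28.2%). For 9 members the called change reached 1 or more in log2 units, up or down (24.3%, against 18.1% of all genes). The 4 arrays of one medium did not overlap those of the other for 20 members (54.1%, against 53.3% of all genes). The shares of members therefore lay near those of all genes, and the median change was −0.11 over the tested members and 0.07 over all genes. Bmp6 and Id4 had no array well above background in 1 medium, and Bmp2, Bmp7 and Eng had only 1 such array there. They passed the filter on dim probes through the medium in which they were higher. These counts and medians therefore describe the genes that passed and not the whole set. With scaling to spike-in controls, 10 members were called higher and 6 lower.

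**Figure D1:**
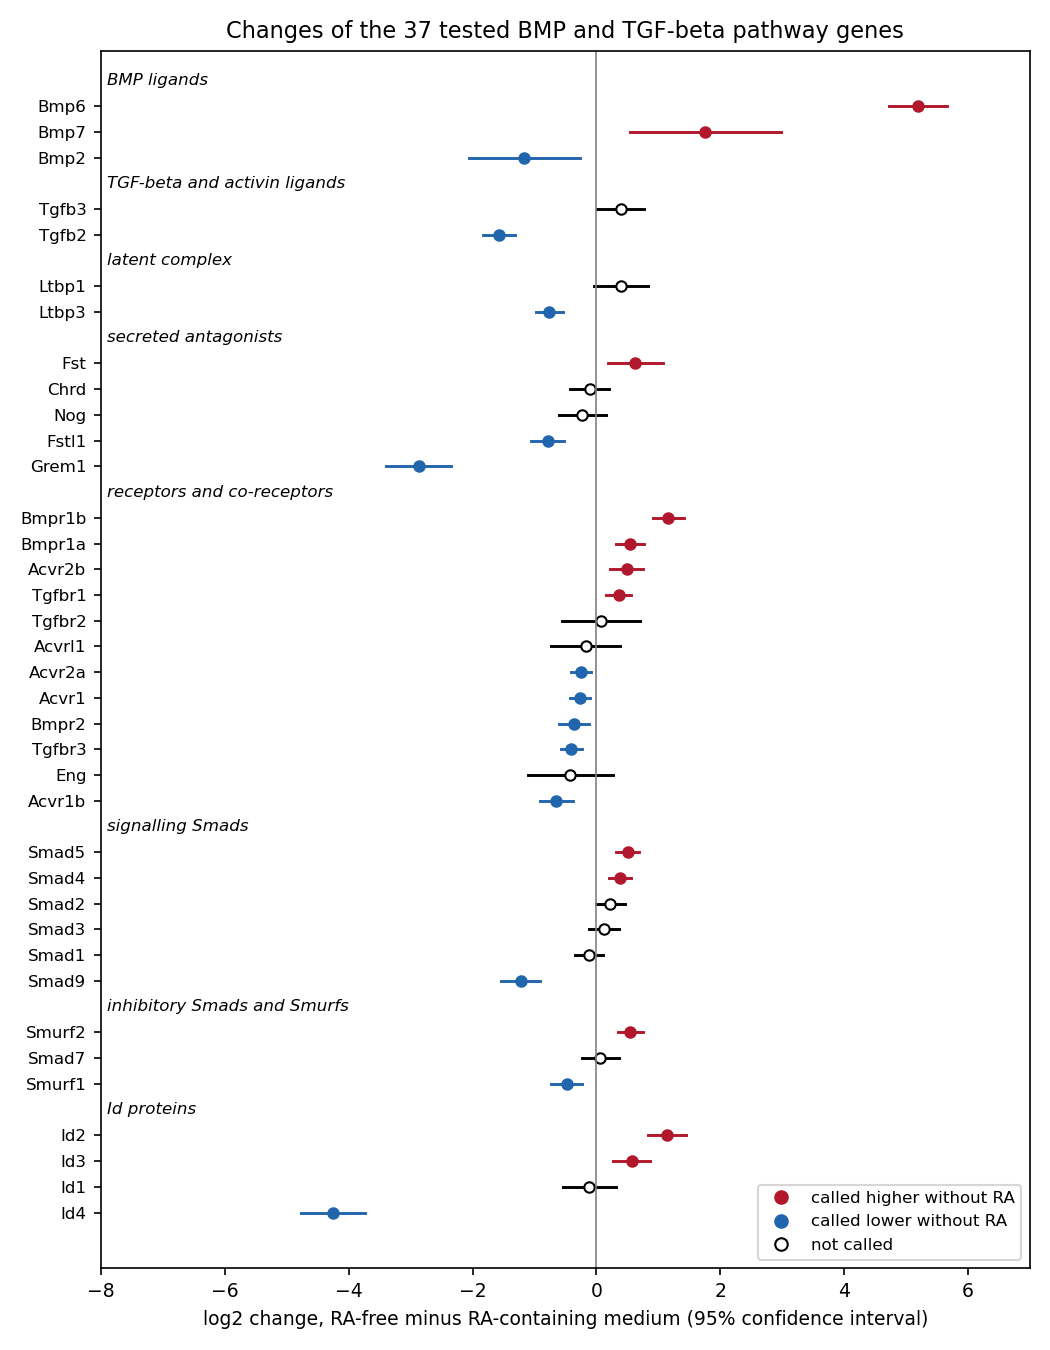
Log2 change of each of the 37 tested members (RA-free minus RA-containing medium) with its 95% confidence interval, grouped by role; filled points were called changed and open points were not. Bmp6 lies far to the right at 5.20 and Id4 far to the left at −4.25, while the receptors lie between −0.65 and 1.16.

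The largest increase of the set was in a BMP ligand. Bmp6 (NM_007556), a ligand of the BMP branch, had no RA-containing array well above background; its levels there were −5.98, −6.63, −6.24 and −6.28 for ganglia 1 to 4. It was well above background on all 4 RA-free arrays, at −1.37, −0.84, −0.97 and −1.14. The groups lay far apart, and the RA-containing values are at the floor of the array. The fitted change of Bmp6 was 5.20 (SE 0.19, limma adjusted p = 4.91e-05, n = 4 ganglia), but since one side is only a bound its size is given as at least 11.9-fold higher without RA. A bound of this kind sets the mean of the brighter medium against the lowest signal that counted as well above background on each array of the other. Under normexp background correction with quantile normalization, which compresses dim signals by an offset and is called normexp below, the change was 1.43 and was still called.

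Bmp7 (NM_007557), a ligand related to Bmp6, was higher without RA on every ganglion but unevenly so. Its levels with RA were −5.23, −4.71, −4.25 and −4.44, with 1 of 4 arrays well above background. Without RA they were −2.14, −1.97, −3.63 and −3.85, all well above background. The arrays of the media did not overlap, yet ganglia 1 and 2 rose by 3.09 and 2.74 and ganglia 3 and 4 by only 0.62 and 0.59. The change of Bmp7 was 1.76 (SE 0.49, limma adjusted p = 0.0226, 3.39-fold). The call was lost without ganglion 1 (1.32, adjusted p = 0.0585), without ganglion 2 (1.43, adjusted p = 0.0805) and with no filter on dim probes (adjusted p = 0.0517), and the change was 0.53 under normexp with quantile normalization.

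Bmp2 (NM_007553), which signals through the same type I receptors as Bmp4, went the other way. With RA its levels were −2.96, −3.83, −2.94 and −3.04, well above background on all 4 arrays. Without RA they were −4.92, −4.52, −2.95 and −5.03, and only the array of ganglion 3 was well above background. Ganglion 3 kept its level while the other 3 ganglia fell, so the groups overlapped. The change of Bmp2 was −1.16 (SE 0.36, limma adjusted p = 0.0323). It was no longer called without ganglion 1 (−0.90, adjusted p = 0.0955), ganglion 2 (−1.32, adjusted p = 0.0550) or ganglion 4 (−0.89, adjusted p = 0.102), nor with no filter on dim probes (adjusted p = 0.0685), and was −0.25 under normexp. No array had Bmp4 or Bmp5 well above background, and neither was tested.

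The window before the Bmp6 start is shown because Bmp6 is the member that rose most. Its 250 bases (chr13:38345466-38345715, plus strand, build GRCm38.p6, RefSeq) are printed 5′ to 3′, with capitals for matches to the motifs that were searched on both strands.
Bmp6: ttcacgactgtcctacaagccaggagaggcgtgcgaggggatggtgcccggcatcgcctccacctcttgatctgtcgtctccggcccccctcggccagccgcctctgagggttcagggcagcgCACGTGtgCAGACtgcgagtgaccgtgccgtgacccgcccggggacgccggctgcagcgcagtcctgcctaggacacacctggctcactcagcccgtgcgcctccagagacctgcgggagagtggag
The motifs were AGGTCA, the half-site of RA and other nuclear receptors, CAGAC, the Smad box, GGCGCC, a GC-rich Smad element, and CACGTG, the E-box read by MYC and MAX. The Bmp6 window held 1 CACGTG, 122 to 127 bases before the start, and 1 CAGAC, 115 to 119 bases before it. Of all 32851 such windows of 250 bases, 6.0% held CACGTG, 42.2% CAGAC, 9.6% GGCGCC and 14.0% AGGTCA. Windows were found for 32 members, of which 4 held CACGTG (12.5%), 16 CAGAC, 10 GGCGCC (31.2%) and 2 AGGTCA (6.2%). The shares of members count genes, while those of all windows count windows, so the units differ. Bmp2, Bmp7 and Id1 were among the members without a window. A match is a string of letters and not a bound site.

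**Figure D2:**
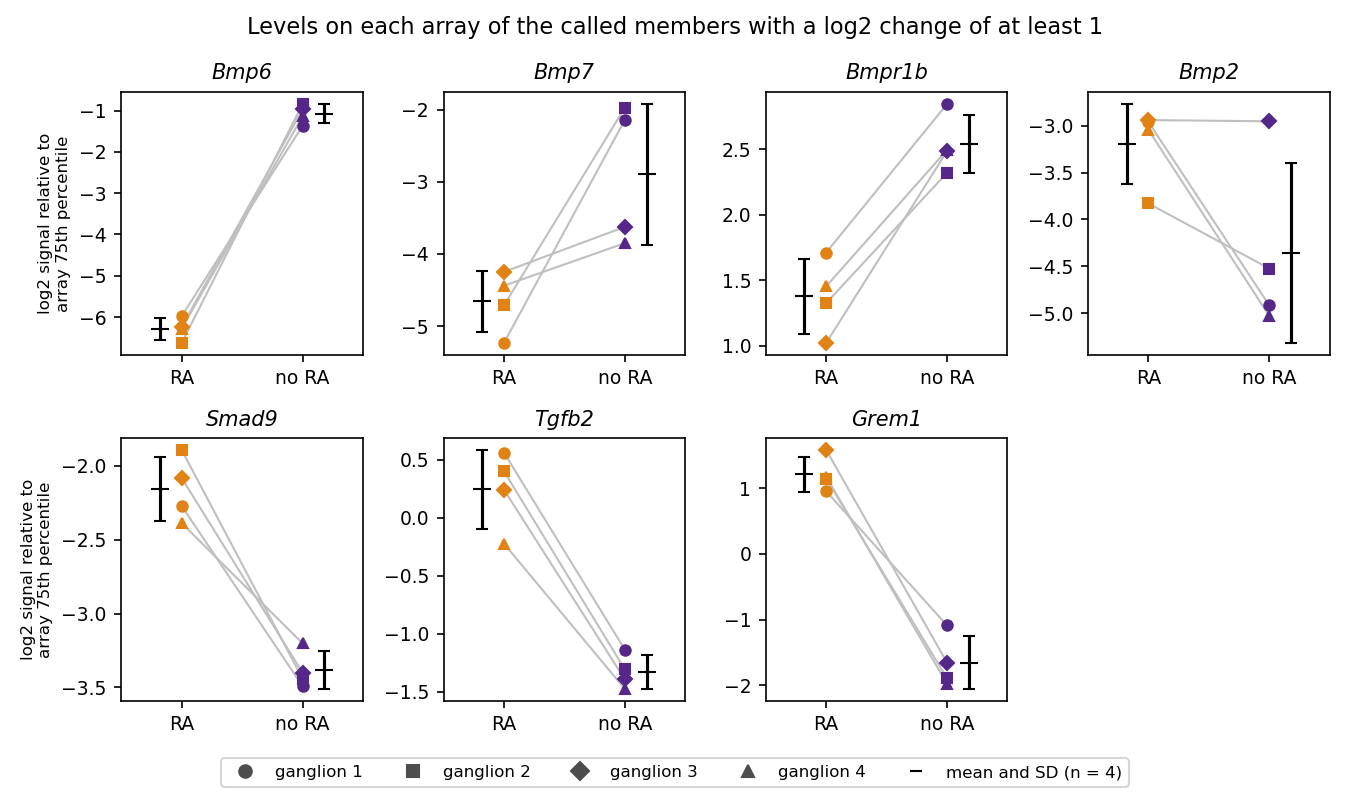
Level on each array (log2 signal over the array's 75th percentile) of the called members outside the Id family whose change reached 1 log2 unit up or down; lines join the arrays of 1 ganglion, and bars give the mean and SD of 4 arrays. The media are apart for Bmp6, Bmp7, Bmpr1b, Smad9, Tgfb2 and Grem1, while for Bmp2 ganglion 3 stays at −2.95 without RA.

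Among the TGF-beta ligands, Tgfb2 fell and Tgfb3 did not pass the test. Tgfb2 (NM_009367), an isoform made by neurons and glia among others, stood at 0.56, 0.40, 0.24 and −0.22 with RA and at −1.14, −1.31, −1.39 and −1.48 without. The groups did not overlap and all 4 ganglia fell by similar amounts. The change of Tgfb2 was −1.57 (SE 0.10, limma adjusted p = 0.000147), a 2.97-fold decrease, and a second probe of the gene gave −1.62. Tgfb3 had a change of 0.39 (95% confidence interval 0.01 to 0.77, limma adjusted p = 0.0654) with overlapping groups. Tgfb3 was called higher under normexp (0.26, adjusted p = 0.0361), with array-median scaling (0.42, adjusted p = 0.0465) and without ganglion 1 (0.53, adjusted p = 0.0264).

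Tgfb1 (the isoform best known from immune and stromal cells) was left out of the test because its probe was well above background on only 3 arrays, all of them with RA. Its levels were −3.67, −4.23, −3.60 and −4.14 with RA and −5.76, −5.78, −5.73 and −5.82 without, so the groups did not overlap. As a bound, Tgfb1 was at least 1.30-fold lower without RA. With no filter on dim probes, where 20641 genes were tested, its change of −1.86 was called (limma adjusted p = 0.00104). The activin subunit genes were near background too: Inhba had no array well above background, and Inhbb 1 RA-containing array.

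The latent TGF-beta binding proteins hold TGF-beta in the matrix in an inactive complex. Ltbp3 fell from 0.36 ± 0.09 to −0.40 ± 0.11 (SD, n = 4), a change of −0.76 (SE 0.09, limma adjusted p = 0.000920) in all 4 ganglia without overlap. Another Ltbp3 probe gave −1.63, so the size depends on the probe. The Ltbp3 call was lost under spike-in scaling (−0.60, adjusted p = 0.0621). Ltbp1 had a change of 0.40 (95% confidence interval −0.04 to 0.84, limma adjusted p = 0.0928), which did not pass.

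Of the 5 secreted antagonists, Grem1 and Fstl1 fell, Fst rose, and Nog and Chrd did not pass. Grem1 (NM_011824), gremlin 1, binds and blocks BMP ligands. Its levels were 0.95, 1.14, 1.58 and 1.17 with RA and −1.09, −1.90, −1.66 and −1.98 without. The groups lay more than 2 log2 units apart at the nearest, and the RA-free array of ganglion 1 was the highest of its medium. The change of Grem1 was −2.87 (SE 0.21, limma adjusted p = 0.000205), a 7.30-fold decrease. It was called under all 14 alternatives, between −3.14 and −2.30.

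Fstl1, a secreted follistatin-like protein, fell from 0.50 ± 0.22 to −0.29 ± 0.20 (SD, n = 4), a change of −0.79 (SE 0.11, limma adjusted p = 0.00147), lower in 4 of 4 ganglia without overlap. Fst, follistatin, which traps activin, rose by 0.63 (SE 0.18, limma adjusted p = 0.0250) from a low level, with overlapping groups. All 4 RA-containing arrays but only 3 of 4 RA-free arrays were well above background for Fst. The Fst call was lost without ganglion 1 (0.53, adjusted p = 0.0796), without ganglion 2 (0.47, adjusted p = 0.0785) and with no filter on dim probes (adjusted p = 0.0563), and the change was 0.21 under normexp. Nog, noggin, had a change of −0.23 (95% confidence interval −0.61 to 0.15, limma adjusted p = 0.236), with ganglia 1 and 2 slightly higher and ganglia 3 and 4 lower. Chrd, chordin, had one of −0.11 (−0.42 to 0.20, adjusted p = 0.477).

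The window before the Grem1 start is shown because Grem1 is the antagonist that fell most, with the same motifs in capitals (chr2:113758649-113758898, minus strand, GRCm38.p6, RefSeq, read 5′ to 3′ along the gene).
Grem1: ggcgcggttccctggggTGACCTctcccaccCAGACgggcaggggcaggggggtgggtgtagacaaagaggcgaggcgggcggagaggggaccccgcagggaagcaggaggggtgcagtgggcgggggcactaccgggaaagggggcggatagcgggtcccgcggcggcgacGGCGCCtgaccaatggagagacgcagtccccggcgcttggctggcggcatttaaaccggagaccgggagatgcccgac
It held TGACCT, which is AGGTCA on the other strand, 228 to 233 bases before the start, CAGAC 215 to 219 bases before it, and GGCGCC 73 to 78 bases before it.

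Markers of other cell types were measured beside these ligands and antagonists, which stromal and glial cells also make. The summed linear level of 17 fibroblast and mesenchyme markers was 12.8 to 16.8 with RA and 14.8 to 19.8 without, in units of the array's 75th percentile, so the media overlapped. For Pdgfra and Lum among them no array was well above background. Of the 11 tested fibroblast markers, 3 were called higher and 4 lower. The sum of 16 Schwann and satellite glia markers was lower without RA, 25.7 to 33.2 against 44.2 to 51.0, with 6 of 13 tested called lower and 1 higher, and no array well above background for Erbb3. The summed sympathetic markers were 1012 to 1141 without RA against 1246 to 1410, a sum carried by bright probes such as Dbh, Prph and Stmn2; of the 20 markers 6 were called higher, Th by 3.59 and Isl1 by 2.00 among them, and 9 lower. Immune markers were also lower in sum (15.0 to 17.4 against 19.4 to 24.0). That sum was carried mostly by the bright probe of Itgam, at a mean level of 4.23 with RA and 3.72 without. Of 7 tested immune markers, 3 were called lower, 0 higher and 4 neither. For 7 of the 14 on the array, Ptprc and Cd14 among them, no array was well above background. Adrenocortical markers were higher in sum (18.7 to 23.4 against 14.6 to 16.2), with 2 of 6 tested called higher. The sum followed Fdx1, its brightest probe, at a mean level of 3.27 with RA and 3.97 without. Star, the other called gene, was dim in both media, with means of −4.39 and −3.66. Cyp21a1, Fdxr, Nr5a1 and Scarb1 were not called. For Cyp11a1, Cyp11b1, Cyp11b2, Hsd3b1 and Mc2r no array was well above background. Endothelial markers overlapped (9.17 to 10.3 against 8.86 to 11.49), with 0 of 6 tested called higher and 1 lower. Each sum follows its brightest probes, such as Pmp22 and Mbp for glia and Kdr for endothelium. Over all genes tested, 36.1% were called higher and 28.2% lower. The part of any of these cells in the changes of the members was not tested.

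Among the receptors, 4 of 12 tested were called higher and 5 lower, with changes from −0.65 to 1.16. Over all genes tested, the shares were 36.1% higher and 28.2% lower. Bmpr1b (NM_007560), a type I BMP receptor, rose most. Its levels were 1.71, 1.33, 1.02 and 1.45 with RA and 2.85, 2.32, 2.49 and 2.50 without. The groups did not overlap, and each ganglion rose. The change of Bmpr1b was 1.16 (SE 0.10, limma adjusted p = 0.000327), a 2.23-fold rise, and another probe gave 0.82.

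Bmpr1a, another type I receptor of the BMP branch, rose from 2.23 ± 0.14 to 2.78 ± 0.30 (SD, n = 4), a change of 0.55 (SE 0.09, limma adjusted p = 0.00308) in all 4 ganglia. Both were called under all 14 alternatives. Acvr2b, a type II receptor shared by activins and BMPs, rose by 0.49 (SE 0.11, limma adjusted p = 0.00953), by only 0.13 in ganglion 3. Its call was lost when processed signals were quantile-normalized (0.28, adjusted p = 0.0576), and its change was 0.26 under normexp. Tgfbr1, the type I TGF-beta receptor, rose by 0.36 (SE 0.08, limma adjusted p = 0.0107), a call lost under spike-in scaling (0.52, adjusted p = 0.113) and without ganglion 4 (0.33, adjusted p = 0.0533).

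The BMP receptors Bmpr2 (type II) and Acvr1 (type I) and the activin receptors Acvr1b and Acvr2a were lower. Acvr1b, the type I activin receptor, had a change of −0.65 (SE 0.11, limma adjusted p = 0.00301) with 2 of 4 RA-free arrays well above background. Acvr1b was not called under normexp (−0.11, adjusted p = 0.129) or spike-in scaling (−0.49, adjusted p = 0.138). Tgfbr3, betaglycan, the co-receptor that presents TGF-beta 2, had a change of −0.40 (SE 0.07, limma adjusted p = 0.00322), with all 4 ganglia between −0.45 and −0.35. It was not called under spike-in scaling (−0.25, adjusted p = 0.490), and its change was −0.20 under normexp.

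The remaining falls among receptors were small. Bmpr2 had a change of −0.36 (limma adjusted p = 0.0193), Acvr1, a type I receptor of the BMP branch, −0.26 (adjusted p = 0.0165) and Acvr2a, a type II activin receptor, −0.25 (adjusted p = 0.0174). Under spike-in scaling none of these 3 was called (adjusted p = 0.569, 0.788 and 0.808). Bmpr2 also lost its call without the block for the ganglion (adjusted p = 0.0684) and without ganglion 1 or 2 (−0.35 and −0.38, adjusted p = 0.0627 and 0.0576). Acvr1 lost it without ganglion 1, 2 or 4 (−0.25, −0.25 and −0.28, adjusted p = 0.0586, 0.0684 and 0.0515), and Acvr2a likewise (−0.26, −0.24 and −0.26, adjusted p = 0.0516, 0.0746 and 0.0690). A second probe of each of Acvr1 and Acvr2a gave a somewhat larger fall, −0.48 and −0.38.

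Tgfbr2, the type II TGF-beta receptor, had a change of 0.07 with a wide 95% confidence interval of −0.56 to 0.71 (limma adjusted p = 0.814), since ganglion 1 fell by 0.72 and ganglion 3 rose by 0.93. Acvrl1 and Eng, known from endothelial cells, did not pass, with changes of −0.17 (−0.73 to 0.39) and −0.42 (−1.11 to 0.27). Single ganglia decided both: Acvrl1 was called lower without ganglion 3 (−0.45, adjusted p = 0.0242) and Eng without ganglion 2 (−0.77, adjusted p = 0.0104). Among 13 endothelial markers, Cdh5, Tek, Emcn, Sox17 and Sox18 had no array well above background. Bambi, a pseudoreceptor that blocks signalling, had none either and was not tested.

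The Smad proteins that carry the signal were split. Smad9 (NM_019483), a Smad of the BMP branch, was −2.27, −1.90, −2.08 and −2.39 with RA and −3.49, −3.44, −3.40 and −3.20 without. The groups did not overlap, and ganglion 4 changed least, by −0.81. The change of Smad9 was −1.22 (SE 0.13, limma adjusted p = 0.000609), a 2.33-fold decrease, and −0.44 under normexp, where it was still called.

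Smad5, another Smad of the BMP branch, rose from 3.31 ± 0.10 to 3.81 ± 0.03 (SD, n = 4), a change of 0.51 (SE 0.08, limma adjusted p = 0.00224) that was called under all 14 alternatives. A dimmer Smad5 probe gave 1.14, the mean over its probes 0.82, and normexp with quantile normalization 0.33. Smad4, the partner shared by all branches, rose by 0.39 (SE 0.07, limma adjusted p = 0.00458) in all 4 ganglia without overlap. A second Smad4 probe gave 0.12 and did not pass (adjusted p = 0.388 over all probes), the mean over both probes was 0.25, as was the value under normexp, and the call was lost under spike-in scaling (0.54, adjusted p = 0.0953). Smad1 had a change of −0.12 (95% confidence interval −0.34 to 0.10), Smad2 one of 0.23 (−0.01 to 0.46) and Smad3 one of 0.13 (−0.11 to 0.37), none of which passed (limma adjusted p = 0.275, 0.0811 and 0.283). These intervals leave room for changes of about 0.34 to 0.46 in size. Smad3 was dim, with means of −3.50 with RA and −3.37 without, and 3 of 4 RA-free arrays well above background. For a second Smad3 probe no array was. The interval of Smad3 therefore describes a signal near background.

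Among the dampers of the pathway, the ubiquitin ligases Smurf1 and Smurf2 moved in opposite directions. Smurf2 rose by 0.55 (SE 0.08, limma adjusted p = 0.00192) in 4 of 4 ganglia without overlap, with 0.33 and 0.23 by its other probes, the latter not passing (adjusted p = 0.0999 over all probes). Smurf1 had a change of −0.48 (SE 0.10, limma adjusted p = 0.00839) with overlapping groups, because the RA-free array of ganglion 1 stood at −0.49, above the −1.23 to −1.13 of the remaining ganglia. Its call was lost under spike-in scaling (−0.32, adjusted p = 0.360). Smad7, an inhibitory Smad, had a change of 0.07 (95% confidence interval −0.23 to 0.36, limma adjusted p = 0.647) and was detected on 5 of 8 arrays. Smad6 had no array well above background and was not tested.

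The 4 Id genes, whose products sequester basic helix-loop-helix partners, did not move together. Id4 (NM_031166) fell to background. Its levels were −0.94, −0.15, −0.35 and −0.51 with RA, all well above background, and −5.29, −4.46, −5.19 and −4.03 without, none of which was. The groups lay far apart in every ganglion. The fitted change of Id4 was −4.25 (SE 0.21, limma adjusted p = 7.96e-05), its bound was at least 13.9-fold lower, and its change under normexp was −1.70, a call that held.

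Id2 (NM_010496), also known as a target of MYC proteins, rose. Its levels were 1.32, 1.70, 1.71 and 1.66 with RA and 2.54, 3.21, 2.67 and 2.52 without, with no overlap. The change of Id2 was 1.14 (SE 0.12, limma adjusted p = 0.000688) and the largest rise was in ganglion 2. Id3 (NM_008321) was 0.74, 1.07, 0.92 and 0.69 with RA and 0.92, 1.73, 1.76 and 1.30 without, so the RA-free array of ganglion 1 lay within the RA-containing range. The change of Id3 was 0.57 (SE 0.12, limma adjusted p = 0.00781), and it was called under all 14 alternatives, as was Id2.

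Id1 (NM_010495), the member most used as a BMP readout, was 1.93, 2.13, 2.34 and 1.92 with RA and 1.19, 2.11, 2.41 and 2.17 without. Ganglion 1 was lower by 0.74 without RA, and the other 3 ganglia lay within 0.25 of their RA-containing partner. The change of Id1 was −0.11 (95% confidence interval −0.54 to 0.31, limma adjusted p = 0.593).

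**Figure D3:**
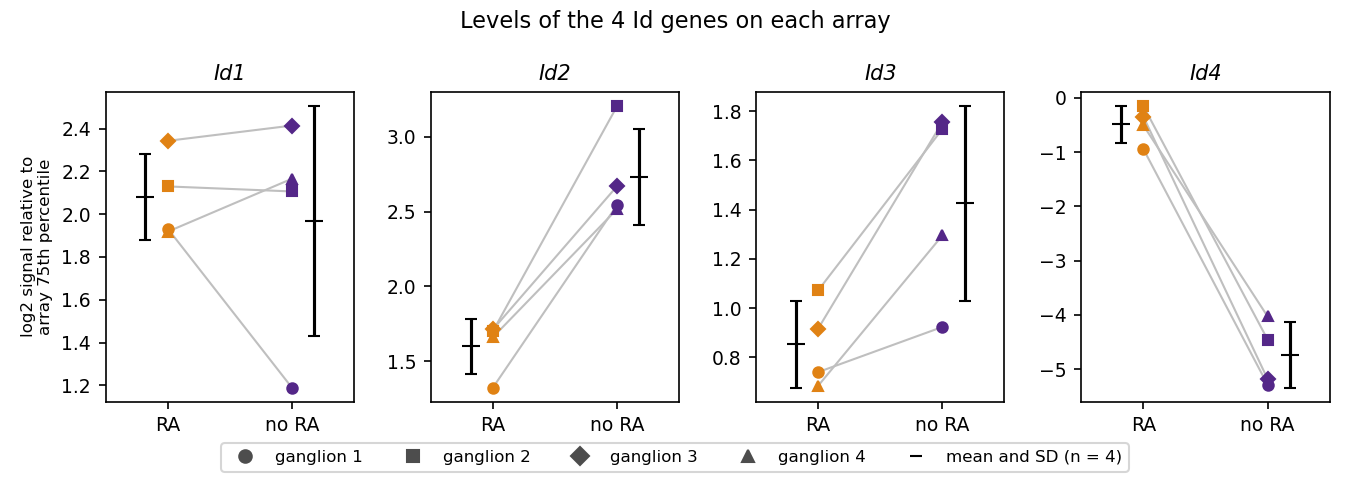
Level on each array (log2 signal over the array's 75th percentile) of the 4 Id genes; lines join the arrays of 1 ganglion, and bars give the mean and SD of 4 arrays. Id4 drops in all 4 ganglia to a mean of −4.74, Id2 and Id3 rise in all 4, and Id1 differs between ganglia.

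The windows before the starts of the Id genes that changed are set side by side because these relatives moved in opposite directions (Id2 chr12:25096093-25096342, minus strand; Id3 chr4:136143572-136143821, plus strand; Id4 chr13:48260866-48261115, plus strand; GRCm38.p6, RefSeq, 5′ to 3′ along the gene, motif matches in capitals).
Id2: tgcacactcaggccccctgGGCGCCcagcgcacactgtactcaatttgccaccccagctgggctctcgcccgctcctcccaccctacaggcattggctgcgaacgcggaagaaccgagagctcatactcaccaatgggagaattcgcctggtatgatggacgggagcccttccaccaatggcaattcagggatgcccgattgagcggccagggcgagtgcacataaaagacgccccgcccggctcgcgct
Id3: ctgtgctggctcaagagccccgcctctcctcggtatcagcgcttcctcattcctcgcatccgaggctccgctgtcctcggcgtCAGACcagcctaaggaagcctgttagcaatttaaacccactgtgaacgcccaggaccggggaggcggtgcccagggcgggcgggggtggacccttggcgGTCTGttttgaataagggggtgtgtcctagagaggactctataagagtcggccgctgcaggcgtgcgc
Id4: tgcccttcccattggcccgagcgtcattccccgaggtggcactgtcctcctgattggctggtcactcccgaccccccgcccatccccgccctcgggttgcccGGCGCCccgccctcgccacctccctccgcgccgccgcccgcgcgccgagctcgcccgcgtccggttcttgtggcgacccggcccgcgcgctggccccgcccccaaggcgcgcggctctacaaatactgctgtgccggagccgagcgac
Id2, which rose, and Id4, which fell, each held 1 GGCGCC, 226 to 231 and 143 to 148 bases before the start. Id3 held 2 Smad boxes, 163 to 167 and 64 to 68 bases before the start, the nearer on the other strand. None of the 3 windows held AGGTCA or CACGTG, and the same GGCGCC motif thus stood before an Id gene of each direction.

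Ganglia differed in how far the called members moved. The median size of change over the 25 called members was 0.53 in ganglion 1, 0.69 in ganglion 2, 0.65 in ganglion 3 and 0.61 in ganglion 4. Ganglion 1 had the smallest change for 10 of the 25 (40.0%), and for 41.6% of the 8705 called genes overall. All 25 called members moved the same way in all 4 ganglia, as did 8614 of all 8705 called genes.

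Pathway genes outside the set were taken from 7 lists of 148 genes in all, of which 110 were tested, with a median of −0.07. Called higher were 25 (22.7%, against 36.1% of all genes tested) and lower 37 (33.6%, against 28.2%), or 56.4% in all against 64.3%. Whether the lists differ from other genes was not tested. Genes such as Gdf2, Tmem100, Nrros and Ltbp2 passed the filter only through the medium in which they were higher, so these counts describe the genes that passed. Scaled to the 75th percentile over detected probes 18 were higher and 42 lower, and under spike-in scaling 20 and 22. Under normexp dim genes changed less, and its value follows a gene where it differs by more than 1.5-fold. Among 15 tested ligands, 5 (33.3%) were called lower and 2 (13.3%) higher, or 3 and 1 under spike-in scaling. The higher count was 1 without ganglion 1, 2 or 4 and 3 without ganglion 3. Bmp3, a BMP family member that antagonises other BMPs, fell from 2.87 ± 0.12 to −0.50 ± 0.31 (SD, n = 4), a change of −3.37 (SE 0.14, limma adjusted p = 6.15e-05). Gdf15, a stress-induced cytokine, had a change of −1.83 (−0.74 under normexp) and Inha, the inhibin alpha subunit, −1.04. Gdf2, a ligand of Acvrl1, had no RA-containing array well above background and was at least 1.83-fold higher without RA (0.33 under normexp). Gdf11 rose by 0.45 (0.16 under normexp), a call that 9 of 14 alternatives did not keep.

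Of 15 further secreted antagonists and modulators tested, 6 (40.0%, against 28.2% of all genes) were called lower. Called higher was 1 (6.67%, against 36.1% of all genes), and 8 were neither. The higher count was 2 without ganglion 3 and 3 without ganglion 4. Sostdc1, which blocks BMP and Wnt signals, had a change of −3.08 (SE 0.12, limma adjusted p = 5.63e-05), Kcp, a chordin-like protein, −3.12 (SE 0.33) and Fstl3, a follistatin relative, −1.82 (SE 0.12). Of the RA-free arrays, 1 of 4 was well above background for each of the first 2, and the 3 changes were −1.22, −1.11 and −1.15 under normexp. Wfikkn1, a protein that binds myostatin and Gdf11, rose by 0.61 (0.26 under normexp).

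Of 8 further receptors and co-receptors, 5 (62.5%, against 28.2% of all genes) were called lower and 1 (12.5%, against 36.1%) higher. The lower count was 3 without ganglion 2, without ganglion 4 and under spike-in scaling, and the higher count was 0 without ganglion 2, 3 or 4. Tmem100, a membrane protein known downstream of Acvrl1, had no RA-free array well above background and was at least 5.93-fold lower (limma adjusted p = 2.35e-05; −1.11 under normexp). Rgmb, a BMP co-receptor, had a change of −1.02 (−0.36 under normexp) and Vasn, vasorin, which binds TGF-beta, −0.97. Amhr2, the receptor of anti-Müllerian hormone, rose by 0.31 (0.09 under normexp), a call that 7 of 14 alternatives did not keep.

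Of 11 tested genes of the latent complex and its activation, 4 (36.4%, against 28.2% of all genes) were called lower. Called higher were 3 (27.3%, against 36.1%). In all, 63.6% were called, near the 64.3% of all genes. No RA-free array was well above background for Nrros or Ltbp2, whose bounds were at least 1.25-fold and 1.76-fold lower, with −0.30 each under normexp and the call of Ltbp2 lost without ganglion 3. Ltbp4, a latent TGF-beta binding protein, had a change of −0.85. The fibrillins, which anchor such complexes, rose, Fbn2 by 1.65 and Fbn1 by 0.74, or 1.06 and 0.20 under normexp. Bmp1, a protease that cleaves procollagen and chordin, rose by 0.45, a call lost under spike-in scaling and with the mean of all passing probes (0.17).

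Of 28 intracellular regulators, 9 (32.1%) were called higher and 8 (28.6%) lower, near the shares of all genes, or 5 and 9 with processed signals quantile-normalized, 5 and 10 scaled to the 75th percentile over detected probes and 3 and 4 under spike-in scaling. The higher count was 5 without ganglion 4, and the lower count 5 without ganglion 2. Tgif1 and Tgif2, repressors that bind Smad2 and Smad3, rose by 1.09 (SE 0.14) and 2.26 (SE 0.31), the latter 0.59 under normexp and detected on 1 of 4 RA-containing arrays. Map3k7, the kinase TAK1 of the Smad-independent arm, rose by 0.57. Nrep, a neuronal regeneration-related protein, had a change of −1.86 (SE 0.09), Nedd4l, a ubiquitin ligase for Smads, −1.24 (SE 0.10) and Zfyve16, an endosomal Smad anchor, −1.12 (SE 0.08).

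Targets of the pathway were called in both directions. Of 19 tested TGF-beta targets, 5 (26.3%, against 36.1% of all genes) were called higher and 7 (36.8%, against 28.2%) lower. In all, 63.2% were called, near the 64.3% of all genes. Under spike-in scaling, 8 were called higher and 3 lower. Timp1, an inhibitor of matrix proteases, rose by 1.54 (1.02 under normexp) and Col1a2, a collagen chain, by 1.03. Postn, periostin, had a change of −1.11, Mmp2, a matrix protease, −0.92 (−0.57 under normexp) and Klf10, an early TGF-beta response gene, −0.88. Postn and Col1a2 are also in the list of fibroblast markers, and so are terms of its summed level. The part of fibroblasts in these changes was not tested.

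Of 14 tested BMP targets, 4 (28.6%, against 36.1% of all genes) were called higher and 2 (14.3%, against 28.2%) lower. The lower count was 1 without ganglion 1, 2 or 3. Gata2 rose by 2.11 (SE 0.13, limma adjusted p = 0.000117), Hand1 by 1.62 (SE 0.15) and Lmo2 by 1.26 (SE 0.10; 0.53 under normexp), all transcription factors or cofactors. Hand2, a factor of sympathetic development, had a change of −0.39, lost under spike-in scaling and −0.67 under normexp, and Hey1 one of −0.26, a call that 7 of 14 alternatives did not keep. The split of the list was 3 and 3 scaled to the 75th percentile over detected probes or with processed signals quantile-normalized, 5 and 4 under normexp, and 5 and 0 under spike-in scaling, so the falls in it were not kept under every scaling.

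**Figure D4:**
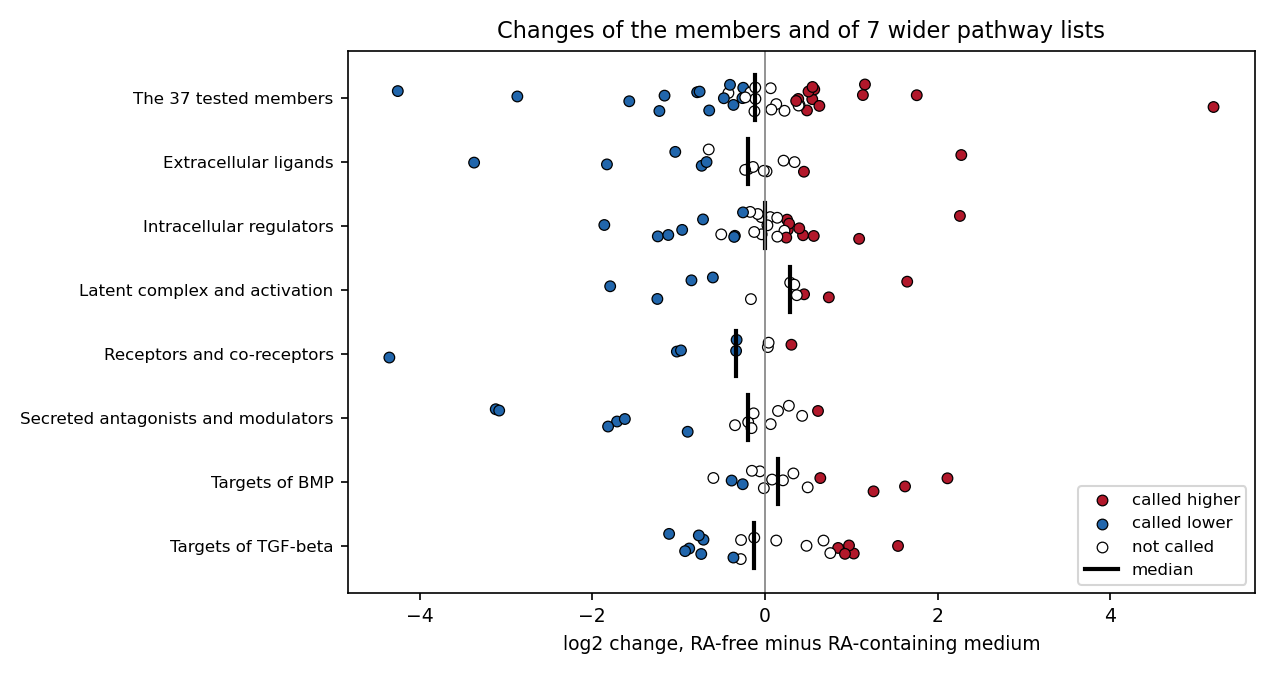
Log2 change of every tested gene (RA-free minus RA-containing medium) for the 37 tested members and the 7 wider pathway lists; each point is a gene, filled where it was called changed, and the black bar is the median of the list. The medians of the lists lie between −0.33 and 0.29, close to 0 beside the spread of single genes; the point of Tmem100 at −4.35 is a fitted value against a medium with no array well above background.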

How the data were processed

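RNA of 8 sphere cultures, each labelled with Cy3, was hybridised to 1-colour Agilent arrays of design 028005, all on 1 slide and in 1 scan. Per the labels' protocols, RNA integrity was over 8 and the input was 40 or 200 ng, without saying which array received which. Per the file headers, the authors' spot intensities came from Feature Extraction 11.5.1.1 (Agilent), background-subtracted and detrended within each array, with an mm9 annotation. The deposited flags (other values, 0 or 1) for signal above background, saturation and outliers were used; no non-control spot was saturated. The authors' deposited table of log2 values, centred per probe, matched the scanner values scaled to the 75th percentile (lowest r 0.9999 over 55617 probes); its exact scaling stays unknown and its column medians were −0.23, −0.22, 0.02 and −0.01 for the RA-containing and −0.07, 0.01, 0.17 and 0.20 for the RA-free arrays.

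Outlier spots were dropped, which removed 64 of 55681 probes, the 75th percentile of each array was subtracted from its log2 intensities, and spots of a probe were averaged. Names came from the RefSeq accession through a gene table of assembly GRCm38.p6: 27206 probes matched 1 symbol and 28411 none. Tested were probes with 4 or more of 8 arrays well above background, and the brightest probe stood for a gene. The media were compared with limma 3.58.1 in R 4.3.3, two-sided, with the ganglion as a block and Benjamini-Hochberg adjustment; the fit was tested on simulated data. The pairing comes from the series' description. Deviations of paired arrays from their medium's mean correlated at 0.516, 0.304, 0.192 and 0.332. Among the 4 RA-free arrays, each RA-containing array correlated most with its own partner. The replicates are biological per the series' description, and 4 arrays a medium limit the precision. The members and lists were chosen with earlier results of these data known. Named were all members and, of each wider list, up to 3 called genes with the largest change in each direction, besides Rarb, Cyp26b1 and Dhrs3 as a check; some genes that these rules would name are not reported here. The normexp alternative used the median spot signal, since the mean was not given. Alternatives covered scaling, background correction, the deposited table, the filter, the probe rule, the block and leaving out each ganglion.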

Additional observations from a re-analysis of the deposited data

Results flagged for a closer look

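In 74 groups of 4 arrays (37 tested members in each medium), 5 had 1 array whose gap to its nearest neighbour, as a share of the range of the group, passed Dixon's 95% critical value for 4 samples; chance flags about 1 in 20 such groups. Of the 5, 3 concerned the RA-free array of ganglion 1, which also lay nearest to the RA-containing arrays on the first principal component. There Bmpr1a stood at 2.33, against 2.90 to 2.96 on the other RA-free arrays, Smurf1 at −0.49 against −1.23 to −1.13, and Ltbp3 at −0.57 against −0.36 to −0.33. Bmpr1a and Smurf1 thus lay towards their RA-containing values, while Ltbp3 lay away from its own, which were 0.24 to 0.44. With RA, Id2 of ganglion 1 stood at 1.32 against 1.66 to 1.71, and Bmp2 of ganglion 2 at −3.83 against −3.04 to −2.94. Without ganglion 1 the call of Bmp2 was lost (−0.90, limma adjusted p = 0.0955), while Bmpr1a, Smurf1, Ltbp3 and Id2 were still called.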

How the results depend on the processing

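No called member changed direction under any of the 14 alternatives, and 12 of the 25 called members (Bmp6, Bmpr1a, Bmpr1b, Fstl1, Grem1, Id2, Id3, Id4, Smad5, Smad9, Smurf2 and Tgfb2) were called under all of them; the other 13 lost the call under at least 1. Under spike-in scaling, 6 members were called lower in place of 13, 5212 of all genes in place of 8705 and 22 wider pathway genes lower in place of 37, and the median over the members was 0.047 in place of −0.11. It moved the median of all genes from 0.07 to 0.23, and the 75th percentile of detected probes moved it to −0.04. Leaving out 1 ganglion at a time gave 10 to 12 members higher and 9 to 14 lower, 7350 to 8245 of all genes, 19 to 24 wider genes higher and 30 to 35 lower, and a median of −0.12 to −0.0001 over the members. Without the replicate block, 12 members were higher and 12 lower, 8022 of all genes were called, and Bmpr2 lost its call, as no other member did. The slide could not be fitted as a block, since all arrays lay on 1 slide. Signal near background limits Bmp2, Bmp6, Bmp7, Id4, Acvr1b, Eng, Fst, Smad3, Smad7 and Tgfb1 to rough sizes or bounds.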
